A study of Mus musculus with 6 samples.

Results

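The genes described here mark the oligodendrocyte lineage, from the dividing precursor to the myelin-forming cell. They are 44 of the 37411 gene rows of the deposited count table, chosen by symbol from a list, and all 44 were found. By stage, 11 mark the precursor or the whole lineage, 7 the committed and early differentiating cell, and 26 the myelinating cell. RNA came from primary hippocampal neuron cultures of mouse pups (strain CD-1 IGS) taken at postnatal day 0 and kept 16 days in vitro. The 3 DMSO libraries (1, 2 and 3) had received the solvent and the 3 forskolin libraries (4, 5 and 6) 50 µM forskolin, each for 30 min. Forskolin activates adenylyl cyclase and raises cyclic AMP. The labels give no genotype, sex, number of pooled pups or batch, and they do not say whether the libraries of a group came from separate dissections, so p-values measure the spread between these libraries, which may be technical.

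Oligodendrocyte precursors divide, carry the PDGF alpha receptor and the NG2 proteoglycan, and are held to the lineage by the transcription factors Olig1, Olig2 and Sox10. As they commit, they pass through a short state marked by Gpr17, Bcas1 and Enpp6, switch on the myelin regulatory factor Myrf, and then make the proteins and galactolipids of myelin. Cultures of newborn hippocampus usually contain such glia beside the neurons.

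Library 6 stood apart from libraries 4 and 5 in these genes, and the counts of calls and most tests are therefore given with and without it. The labels do not settle whether its culture differed in composition or the library was exchanged, which limits what values with or without it mean. Over all tested genes library 6 lay with libraries 4 and 5 above every DMSO library in 10.3% and below in 16.2%. Examples chosen after their values were seen are the early response gene Egr2, with 22.1 CPM in library 6 against 5.51 to 10.2 CPM in DMSO, and Lingo1, with 59.4 CPM against 116 to 137 CPM. Total counts were 28342764 to 35304310 in the DMSO libraries and 34139191 to 47548379 in the forskolin libraries. Levels are given as CPM, counts relative to the library's size, with library sizes scaled by TMM (trimmed mean of M-values). The 2 mitochondrial ribosomal RNAs took 14.0 to 23.7% of counts in the DMSO libraries and 26.9 to 33.3% in the forskolin libraries, and library 6 had the lowest quality weight in limma, at 0.156 against 0.994 to 2.27 in the others. The part of the mitochondrial ribosomal RNAs in the results was not tested, and calls by limma with the quality weights are given below as an alternative. In bulk RNA, fewer cells of a type and less RNA per cell cannot be told apart.

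In the DMSO cultures several precursor genes and the committed-stage gene Gpr17 stood above most myelin genes, with exceptions on both sides. Per kilobase of the longest annotated transcript, the mean DMSO level was 110 CPM for Olig1, 39.5 for Pdgfra, 35.8 for Olig2, 22.2 for the committed-stage Gpr17 and 20.2 for Sox8, against 8.51 for Mbp, 1.46 for Mag, 0.306 for Mog and 0.295 for Mobp. Among the myelinating genes Cnp, an enzyme of the myelin sheath that appears early in differentiation, reached 27.6 CPM per kilobase and Enpp2 15.6, whereas the precursor genes Sox10, Pcdh15, Vcan and Nkx2-2 lay below Mbp, at 8.12 CPM per kilobase or less. The committed genes other than Gpr17 also lay below Mbp, from 0.0538 CPM per kilobase for Nkx6-2 to 7.48 for Bcas1. All 11 precursor genes had a DMSO mean of at least 1 CPM, as did 6 of 7 committed genes and 13 of 26 myelinating genes. Opalin, a membrane glycoprotein of mature oligodendrocytes, held 0 counts in all 3 DMSO libraries.

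Of the 15 myelinating genes with at least 10 counts in every DMSO library, 12 lay above every DMSO library in both forskolin library 4 and library 5, and 1 did so in library 6. Of the 11 precursor genes, 1 lay above in libraries 4 and 5. Over all 15008 genes with such counts, 29.0% lay above in libraries 4 and 5 and 29.9% in library 6. The 26 myelinating genes summed to 295, 233 and 227 CPM in DMSO libraries 1, 2 and 3, and to 733, 911 and 197 CPM in forskolin libraries 4, 5 and 6. The 11 precursor genes summed to 913, 838 and 897 CPM in DMSO and to 574, 751 and 678 CPM with forskolin. Myelinating genes thus held 21.9, 18.9 and 17.7% of the CPM of the 44 genes in the DMSO libraries, 47.5 and 49.4% in libraries 4 and 5, and 19.0% in library 6.

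**Figure D1:**
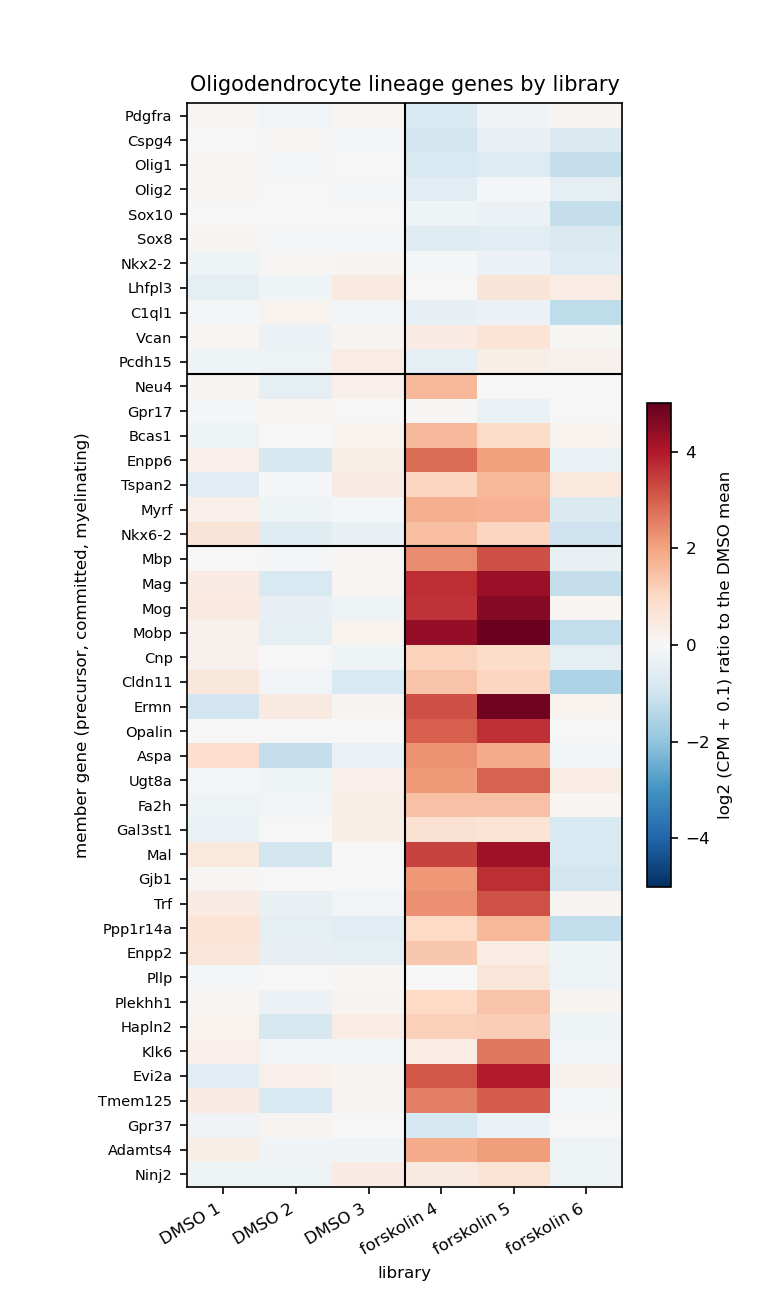
Rows are the 44 genes in order of stage, columns the 6 libraries, and colour is the log2 ratio of CPM + 0.1 to the DMSO mean. Most of the myelinating block is red in libraries 4 and 5, with Mobp at 28.6 times the DMSO mean over both, and pale or blue in library 6, while Olig1, Sox8 and Cspg4 are blue in all 3 forskolin libraries.

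edgeR's quasi-likelihood test on all 6 libraries tested 34 of the 44 genes, and called 0 higher and 1 lower at a Benjamini-Hochberg adjusted p under 0.05. Over all 16233 tested genes 0.172% were called higher and 1.34% lower. At an unadjusted p under 0.05, 12 members were higher and 4 lower. DESeq2 on the same libraries called 9 higher and 3 lower (4.89% and 5.98% of all genes), and limma with library quality weights called 17 higher and 4 lower (21.0% and 20.9%).

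Without library 6, edgeR called 23 of 42 tested members higher and 3 lower, against 16.5% and 17.1% of 16941 genes. The higher genes were 1 of 11 precursor, 4 of 7 committed and 18 of 24 tested myelinating genes, and the 3 lower ones were all precursor genes. Of the 42, 8 passed the low-count filter only when library 6 was left out. Each held at most 7 counts in any DMSO library, so it had to be high in libraries 4 and 5 to be tested, and the calls among these 8 support nothing. With genes instead required to hold at least 10 counts in every DMSO library, a filter blind to forskolin and chosen after the values were seen, 32 members remained. Without library 6 this called 1 of 11 precursor, 4 of 6 committed and 12 of 15 myelinating genes higher and 3 precursor genes lower, where all genes gave 17.4% and 17.3%. Their median log2 fold changes were -0.28, 1.39 and 1.57 by stage, and that of all genes was -0.0017. Stages were not tested against each other.

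**Figure D2:**
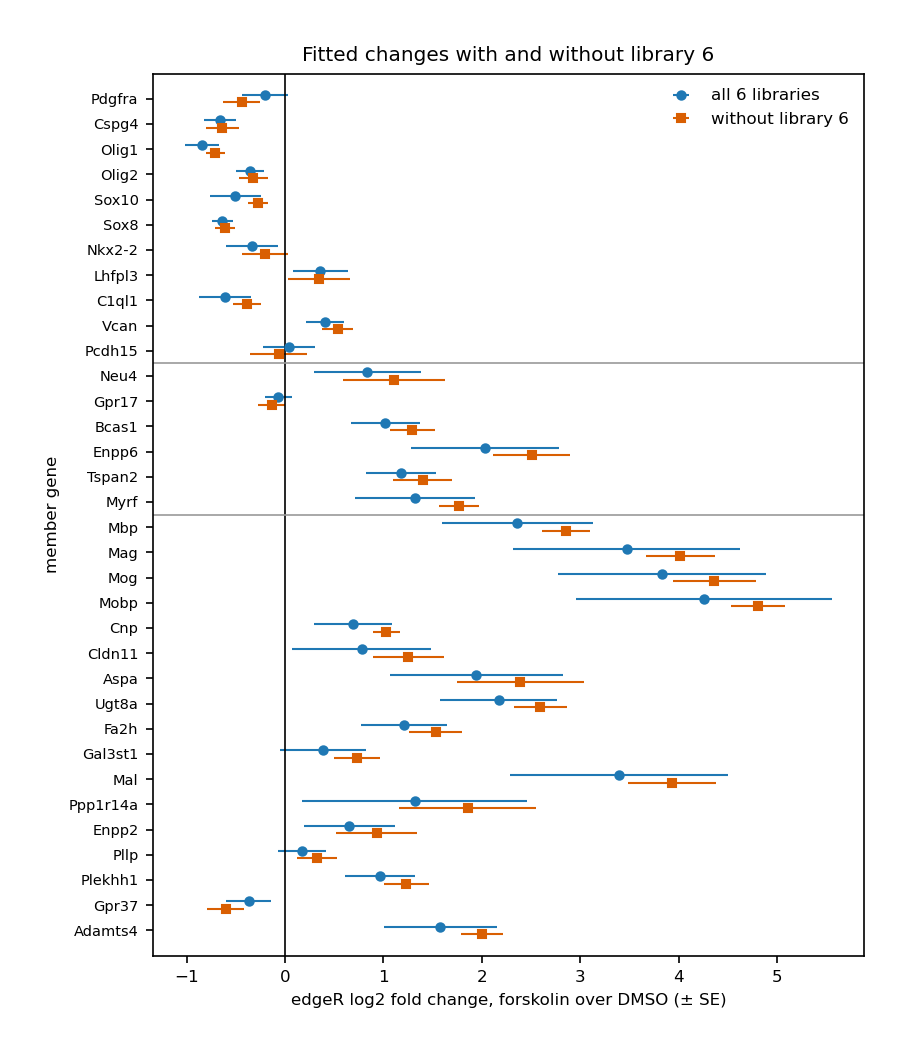
Points are edgeR log2 fold changes of forskolin over DMSO for the 34 members tested with 6 libraries (blue) and without library 6 (orange), bars are ± SE, and grey lines part the stages. Without library 6 most myelin genes lie further right with shorter bars, and Mobp goes from 4.25 to 4.81 with an SE of 1.30 and 0.27.

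Among the genes that hold the lineage's identity, Olig1 had DMSO values of 253, 228 and 231 CPM and forskolin values of 141, 153 and 103 CPM. Every forskolin library lay below every DMSO library. The fitted log2 change was -0.84 ± 0.17 (SE; edgeR adjusted p = 0.0704), and without library 6 it was -0.71 (edgeR adjusted p = 0.00488). Sox8, a relative of Sox10 with an overlapping role, was the gene called with 6 libraries. It had 66.7, 57.7 and 57.4 CPM in DMSO and 40.0, 40.5 and 36.5 CPM with forskolin, without overlap (log2 fold change -0.64 ± 0.11 (SE), edgeR adjusted p = 0.0476). This call was close to the threshold and was lost when any single DMSO library, library 4 or library 5 was left out, but without library 6 it passed again (edgeR adjusted p = 0.00850).

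Cspg4, which encodes the NG2 proteoglycan, had 106, 109 and 99.0 CPM in DMSO and 55.1, 81.1 and 62.7 CPM with forskolin. The groups did not overlap, and the log2 fold change was -0.66 ± 0.16 (SE; edgeR adjusted p = 0.1004), or -0.64 without library 6 (edgeR adjusted p = 0.0308). The call without library 6 was lost with the GC trend also removed (edgeR adjusted p = 0.262). Sox10, which switches on myelin genes, was even across DMSO at 23.0, 22.6 and 22.2 CPM, and had 19.4, 18.5 and 9.74 CPM with forskolin. Its lowest value was thus in library 6, and it was not called with or without that library (edgeR adjusted p = 0.292 and 0.0851). C1ql1, a secreted C1q-like protein made by precursors, was also lowest in library 6, with 13.9 to 16.9 CPM in DMSO and 11.2, 12.2 and 6.24 CPM with forskolin (edgeR adjusted p = 0.234 with 6 libraries and 0.0820 without library 6). Olig2, at 97.2, 91.0 and 83.9 CPM in DMSO and 62.7, 84.2 and 66.4 CPM with forskolin, overlapped between the groups through library 5 (edgeR adjusted p = 0.214, and 0.133 without library 6).

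Pdgfra, the receptor for the growth factor that keeps precursors dividing, differed from Olig1 in library 6. It had 281, 244 and 286 CPM in DMSO, 160 and 242 CPM in libraries 4 and 5, and 301 CPM in library 6, the highest of all 6. The ratio of Pdgfra to Olig1, which does not depend on scaling between libraries, was 1.11, 1.07 and 1.24 in DMSO, 1.14 and 1.58 in libraries 4 and 5, and 2.93 in library 6. The longest transcript has a GC content of 48.1% for Pdgfra and 61.1% for Olig1. The ratio can depend on a library's GC trend, and the part of GC content in it was not tested. With a log2 fold change of -0.20, or -0.44 without library 6, Pdgfra was not called (edgeR adjusted p = 0.621 and 0.110).

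The surface and matrix genes of the precursor were mixed. Vcan, the matrix proteoglycan versican, had 30.0, 23.2 and 30.9 CPM in DMSO, 37.3 and 44.9 CPM in libraries 4 and 5, and 29.1 CPM in library 6. It was called higher only without library 6, among these 2 fits (log2 fold change 0.53 ± 0.16 (SE), edgeR adjusted p = 0.0423; 0.268 with 6 libraries). Lhfpl3 ranged over 20.02 to 39.9 CPM in DMSO and 28.8 to 43.5 CPM with forskolin, and Pcdh15, a protocadherin, over 19.3 to 30.4 and 16.6 to 28.4 CPM. For both, the groups overlapped (edgeR adjusted p = 0.469 and 0.941). Nkx2-2, a homeobox factor of lineage onset, was scarce throughout, at 1.31 to 2.33 CPM over the 6 libraries.

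Members of the precursor stage had a median GC content of 55.7% in the longest transcript, against 49.5% for all tested genes, from 41.5% for Lhfpl3 to 65.8% for C1ql1, and Vcan, the precursor gene called higher without library 6, had 43.7%. With each library's GC trend removed the precursor median went from -0.35 to -0.11 with 6 libraries and from -0.32 to -0.01 without library 6. Olig1 went from -0.71 to -0.25 without library 6 (edgeR adjusted p = 0.1201) and Cspg4 from -0.64 to -0.28 (0.262), so that neither call held. Vcan went from 0.53 to 0.32 and also lost its call (edgeR adjusted p = 0.0955), and Sox10 and C1ql1 turned positive, at 0.23 and 0.37. Sox8 kept its call there, at -0.46 (edgeR adjusted p = 0.0126), but with 6 libraries and the GC trend removed its call was lost, at -0.47 (edgeR adjusted p = 0.2097).

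Of the committed stage, Gpr17, a receptor carried for a short time by differentiating precursors, was flat. It had 109, 124 and 114 CPM in DMSO and 121, 91.6 and 118 CPM with forskolin (log2 fold change -0.07 ± 0.14 (SE), edgeR adjusted p = 0.802). Bcas1, a marker of newly forming oligodendrocytes, had 18.6, 22.4 and 25.2 CPM in DMSO, 67.9 and 41.6 CPM in libraries 4 and 5, and 24.6 CPM in library 6, inside the DMSO range. Without library 6 it was called higher by 1.29 ± 0.22 on the log2 scale (SE; edgeR adjusted p = 0.00910), against 1.02 with 6 libraries (edgeR adjusted p = 0.172).

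Enpp6, a choline phosphodiesterase of newly formed oligodendrocytes, had 2.28, 1.05 and 2.36 CPM in DMSO, 13.7 and 8.11 CPM in libraries 4 and 5, and 1.49 CPM in library 6 (log2 fold change without library 6 of 2.505 ± 0.39 (SE), edgeR adjusted p = 0.00666; 0.188 with 6 libraries). Myrf, the transcription factor that starts myelin gene expression, had 3.15, 2.26 and 2.41 CPM in DMSO and 9.09, 8.90 and 1.55 CPM in libraries 4, 5 and 6, so that library 6 was the lowest of all. Without library 6 it was called higher by 1.77 on the log2 scale (edgeR adjusted p = 0.00356; 0.256 with 6 libraries). Tspan2, a tetraspanin of the myelin membrane, was 1 of 2 tested members whose forskolin values all exceeded every DMSO value, with 6.37, 8.86 and 12.4 CPM in DMSO and 19.7, 29.5 and 13.3 CPM with forskolin. Over all tested genes 10.3% did so. Tspan2 was called by edgeR without library 6 and not with it (edgeR adjusted p = 0.0164 and 0.143). With all 6 libraries it was 1 of 9 members called higher by DESeq2 (DESeq2 adjusted p = 0.0154). By limma with quality weights it was 1 of 17 (limma adjusted p = 0.00923).

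The rest of this stage was irregular. Neu4, a sialidase, had 5.08 CPM in library 4, but 1.53 CPM in library 5 and 1.52 CPM in library 6, within the DMSO range of 1.05 to 1.82 CPM. Nkx6-2 held at most 22 counts in any library.

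**Figure D3:**
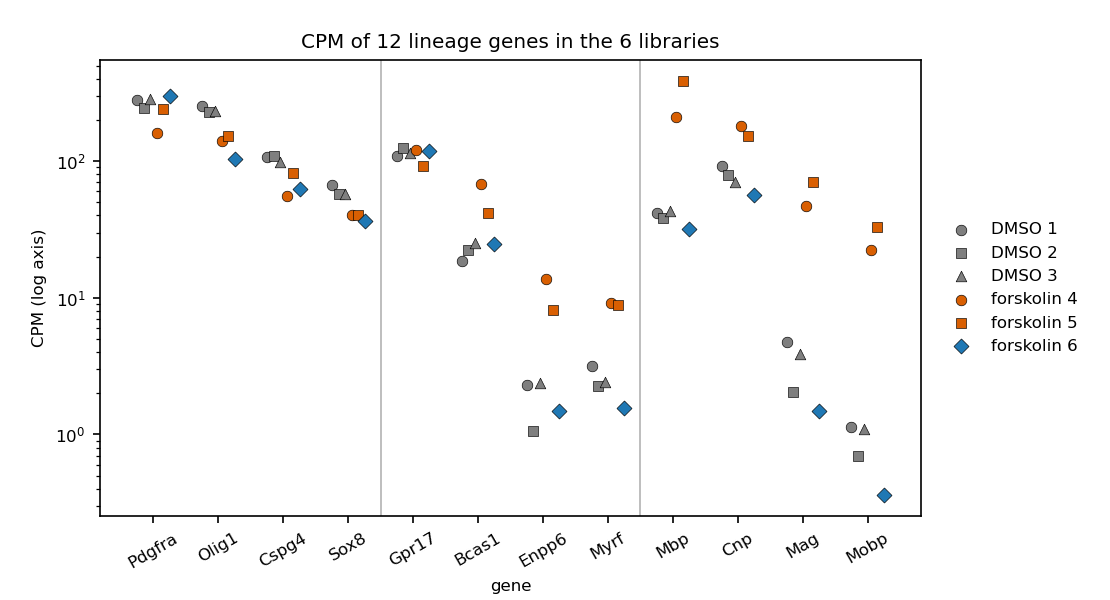
Points are CPM on a log axis for 4 genes of each stage in the 6 libraries, grey for DMSO, orange for forskolin libraries 4 and 5, and blue for library 6. From Bcas1 rightwards the orange points lie above the grey, by 28.6 times the DMSO mean for Mobp, and the blue point lies within or below the grey in each of those 7 genes.

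Among the proteins of compact myelin, Mbp, myelin basic protein, which holds the membrane layers together, had 41.6, 38.0 and 42.8 CPM in DMSO, 210 and 387 CPM in libraries 4 and 5, and 31.6 CPM in library 6. Libraries 4 and 5 averaged 7.32 times the DMSO mean, and library 6 0.775 times. With all 6 libraries the log2 fold change was 2.36 ± 0.76 (SE; edgeR adjusted p = 0.159), and without library 6 it was 2.85 ± 0.24 (SE; edgeR adjusted p = 0.00286).

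Mobp, a small basic protein of compact myelin, had 36, 21 and 39 counts in DMSO, 1049 and 1127 counts in libraries 4 and 5, and 12 counts in library 6. In CPM this was 1.12, 0.689 and 1.09 in DMSO against 22.3, 33.1 and 0.358 with forskolin, so that library 6 was the lowest of all 6. Its log2 fold change was 4.25 ± 1.30 (SE; edgeR adjusted p = 0.145) and 4.81 ± 0.27 without library 6 (SE; edgeR adjusted p = 0.00176). Mal, a proteolipid of myelin, had 2.72, 0.919 and 1.85 CPM in DMSO and 19.9, 36.7 and 1.05 CPM with forskolin (edgeR adjusted p = 0.00356 without library 6 and 0.16 with it).

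Among proteins at the faces of the sheath, Mag, the adhesion molecule next to the axon, had 4.78, 2.03 and 3.84 CPM in DMSO, 46.9 and 69.8 CPM in libraries 4 and 5, and 1.49 CPM in library 6. Libraries 4 and 5 were 16.4 times the DMSO mean and library 6 0.420 times (log2 fold change 3.47 ± 1.15 (SE), edgeR adjusted p = 0.164, and 4.02 without library 6, edgeR adjusted p = 0.00286). Mog, on the outermost layer, had 0.781, 0.361 and 0.421 CPM in DMSO and 7.46, 14.3 and 0.567 CPM with forskolin, with library 6 inside the DMSO range (edgeR adjusted p = 0.00306 without library 6 and 0.128 with it). Opalin went from 0 counts in each DMSO library to 33 and 39 counts in libraries 4 and 5, and 0 in library 6. Set against a floor of 3 counts per DMSO library, libraries 4 and 5 were at least 10.03-fold higher.

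Of the genes that passed the filter only without library 6, Ermn, a cytoskeletal protein of late oligodendrocytes, held 0, 5 and 4 counts in DMSO and 80, 181 and 4 counts with forskolin. Evi2a held 1, 4 and 4 counts in DMSO and 73, 99 and 4 with forskolin. Gjb1, the gap junction protein connexin 32, held 7, 6 and 7 counts and then 59, 129 and 2. Trf, which encodes the iron carrier transferrin, held 4, 1 and 2 counts and then 35, 49 and 3. In all 4 genes library 6 lay within or below the DMSO range. Tmem125 held at most 4 counts in a DMSO library and 41, 44 and 2 with forskolin, and Hapln2 at most 7 and then 20, 15 and 3. Klk6 and Ninj2 were not tested in either fit. Klk6, a secreted protease, held 20 counts in library 5 and at most 2 elsewhere, and Ninj2 held at most 3 counts in any library.

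Of the enzymes that make myelin galactolipids, Ugt8a, which makes galactosylceramide, had 4.28, 3.81 and 5.25 CPM in DMSO and 19.6, 34.7 and 5.73 CPM with forskolin, and was the other tested member with all forskolin values above DMSO, by a narrow margin in library 6. Its log2 fold change was 2.17 ± 0.59 (SE; edgeR adjusted p = 0.126), or 2.59 without library 6 (edgeR adjusted p = 0.00320). Fa2h, which hydroxylates the fatty acid of these lipids, had 0.874 to 1.37 CPM in DMSO and 3.19, 3.14 and 1.16 CPM with forskolin (edgeR adjusted p = 0.00913 without library 6 and 0.182 with it). Gal3st1, which adds the sulfate of sulfatide, had 2.37 to 3.67 CPM in DMSO and 5.204, 4.85 and 1.70 CPM with forskolin, and was not called without library 6 (edgeR adjusted p = 0.0544). It was called there with the GC trend also removed (0.0212) or with the DMSO count filter (0.0408). Aspa, which releases acetate for lipid synthesis, had 0.0656 to 0.562 CPM in DMSO and 1.68, 1.26 and 0.239 CPM with forskolin, but it held 18, 2 and 7 counts in DMSO and was tested only because libraries 4 and 5 were high, so its call without library 6 (edgeR adjusted p = 0.0335) supports nothing. That call was lost with the GC trend also removed (edgeR adjusted p = 0.0970).

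Cnp was the most abundant of the 26 myelinating members in the DMSO cultures per kilobase. It had 92.2, 78.8 and 69.7 CPM in DMSO and 179, 152 and 56.6 CPM with forskolin, that is 2.06 times the DMSO mean in libraries 4 and 5 and 0.705 times in library 6. It was called higher without library 6 (log2 fold change 1.03 ± 0.14 (SE), edgeR adjusted p = 0.00493). Pllp, plasmolipin, overlapped between groups at 10.2 to 11.7 and 9.29 to 17.0 CPM. Gpr37, a receptor that restrains differentiation, was the myelinating-stage gene that went the other way, with 30.6, 38.0 and 35.4 CPM in DMSO, 18.7 and 27.6 CPM in libraries 4 and 5, and 34.3 CPM in library 6 (edgeR adjusted p = 0.364, and 0.0516 without library 6). Plekhh1 had 2.63 to 3.59 CPM in DMSO and 6.56, 8.90 and 3.58 CPM with forskolin (edgeR adjusted p = 0.0109 without library 6 and 0.186 with it), and Ppp1r14a held at most 22 counts in any library. Adamts4, a protease that cuts matrix proteoglycans, had 2.23 to 3.12 CPM in DMSO and 9.49, 11.1 and 2.12 CPM with forskolin (edgeR adjusted p = 0.00329 without library 6 and 0.184 with it).

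Enpp2, a lysophospholipase D also made by meningeal and choroid cells, and Cldn11, the tight junction protein of myelin and of the arachnoid, varied within DMSO as well. Enpp2 had 73.7, 36.1 and 34.6 CPM in DMSO and 124, 61.8 and 41.5 CPM with forskolin. Cldn11 had 22.0, 13.3 and 8.58 CPM in DMSO and 39.8, 30.6 and 4.84 CPM with forskolin. Without library 6, Cldn11 was called higher (edgeR adjusted p = 0.0397) and Enpp2 was not (0.125). For both genes library 1 was the highest of the DMSO libraries and library 4 the highest of all. The 12 vascular, mural and meningeal markers summed to 341, 185 and 142 CPM in DMSO and 413, 157 and 125 CPM with forskolin, the same order within each group, and their part in these 2 genes was not tested.

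Over the 34 tested members, 19 were above every DMSO library in both library 4 and library 5, and 7 were below, where all tested genes gave 30.2% and 32.5%. By stage, 14 of 17 tested myelinating, 4 of 6 committed and 1 of 11 precursor genes were above. Of the 14, Aspa and Ppp1r14a passed the low-count filter only through libraries 4 and 5. Library 6 was above every DMSO library for 3 of 34 members and below for 17, against 29.5% and 35.3% of all genes. All 3 forskolin libraries lay below DMSO for 5 members, each of the precursor stage, against 16.2% of all genes.

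**Figure D4:**
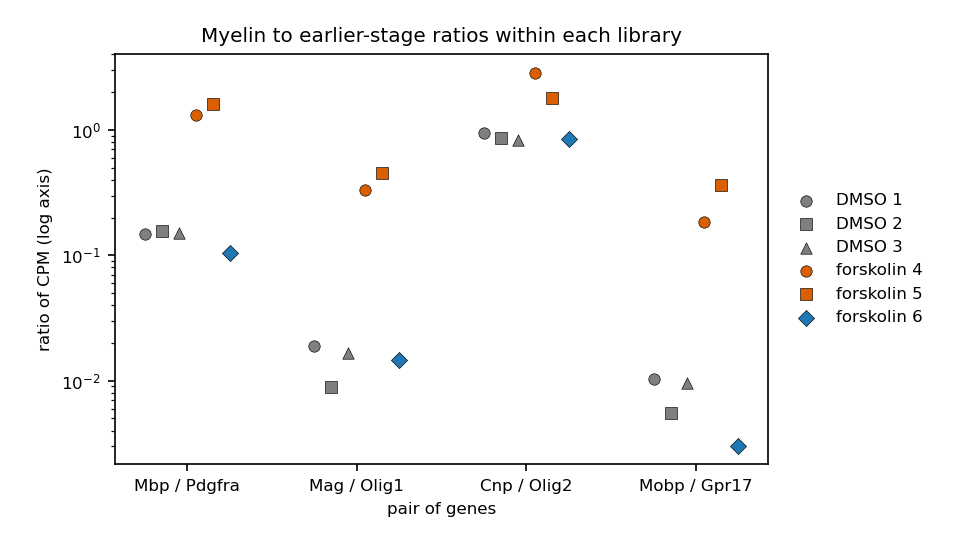
Points are ratios of CPM between a myelin gene and an earlier-stage gene within each library, on a log axis, which do not change with the scaling between libraries. Mbp over Pdgfra is 0.148 to 0.156 in DMSO, 1.31 and 1.60 in libraries 4 and 5, and 0.105 in library 6.

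Ratios within a library do not depend on scaling, and for these 3 pairs of a myelin gene and an earlier gene libraries 4 and 5 lay above the other 4. Each pair sets a gene that was higher in libraries 4 and 5 over one that was not, so this order largely follows from the choice of genes. Mbp over Pdgfra was 0.148, 0.156 and 0.1496 in DMSO, 1.31 and 1.60 in libraries 4 and 5, and 0.105 in library 6. Cnp over Olig2 was 0.949, 0.866 and 0.831 in DMSO, 2.86 and 1.80 in libraries 4 and 5, and 0.852 in library 6. Mag over Olig1 was 0.00893 to 0.0189 in DMSO and 0.333, 0.455 and 0.0145 in libraries 4, 5 and 6. Sox10 over Olig2 differed less, at 0.237 to 0.265 in DMSO and 0.310, 0.219 and 0.147 in libraries 4, 5 and 6.

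The authors' deposited table for the forskolin effect, which holds 132 genes with ranks up to 1224, contains 6 members, all myelinating and all with positive changes. How the 132 genes were picked and what share of them is positive are not given here, so the shared sign says nothing about the members. In the authors' deposited table Mobp has rank 3 with a log2 fold change of 4.11 ± 0.29 (SE), Mag rank 5 with 3.51 and Mbp rank 17 with 2.54. DESeq2 run here on all 6 libraries gave Mobp 4.27 ± 1.33 (SE), and the cause of the difference in SE was not tested. The authors' deposited table also gives Ugt8a 2.25, Adamts4 1.99 and Mal 2.18, at ranks 41, 43 and 225. Of these 6, Ugt8a alone was above every DMSO library in library 6; Mal lay inside the DMSO range there and Mobp, Mag, Mbp and Adamts4 lay below it.

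The promoters of 4 members are shown as examples that differ in response: Mobp and Mag with large gaps between libraries 4 and 5 and DMSO, Cnp with a smaller gap, and Pdgfra, which edgeR did not call. Each is the 250 bases before the first listed start, 5′ to 3′ on the gene's strand, from RefSeq on GRCm38.p6, the build family named in the submitters' processing notes. The windows are chr9:120149492-120149741 (plus strand) for Mobp, chr7:30914864-30915113 (minus strand) for Mag, chr11:100574689-100574938 (plus strand) for Cnp and chr5:75152001-75152250 (plus strand) for Pdgfra. Capitals mark a match on either strand to a SOX site (ACAAAG or ACAATG), the core of the cyclic AMP response element (TGACGT) or its shorter form TGACG, which lies within it. E-boxes (CAGCTG or CATATG) were searched as well, and these 4 windows held none.
Mobp: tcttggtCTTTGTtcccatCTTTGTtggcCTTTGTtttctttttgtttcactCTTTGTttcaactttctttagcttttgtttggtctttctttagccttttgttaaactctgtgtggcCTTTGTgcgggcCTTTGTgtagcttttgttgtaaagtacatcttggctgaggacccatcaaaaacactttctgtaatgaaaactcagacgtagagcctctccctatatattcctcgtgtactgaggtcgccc
Mag: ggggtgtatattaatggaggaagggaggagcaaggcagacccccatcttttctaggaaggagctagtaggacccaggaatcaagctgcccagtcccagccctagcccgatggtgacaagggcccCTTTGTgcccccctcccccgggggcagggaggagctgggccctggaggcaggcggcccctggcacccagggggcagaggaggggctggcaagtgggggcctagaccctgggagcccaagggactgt
Cnp: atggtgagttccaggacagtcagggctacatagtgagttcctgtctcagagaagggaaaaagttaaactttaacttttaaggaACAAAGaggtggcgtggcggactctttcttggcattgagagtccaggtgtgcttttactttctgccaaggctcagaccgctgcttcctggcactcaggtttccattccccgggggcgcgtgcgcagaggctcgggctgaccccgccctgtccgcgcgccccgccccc
Pdgfra: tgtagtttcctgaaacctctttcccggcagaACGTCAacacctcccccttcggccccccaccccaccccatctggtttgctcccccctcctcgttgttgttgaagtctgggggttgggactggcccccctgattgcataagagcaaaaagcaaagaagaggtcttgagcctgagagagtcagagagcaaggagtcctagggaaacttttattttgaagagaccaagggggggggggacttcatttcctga

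Mobp held 6 matches to a SOX site, Mag 1 and Cnp 1 and Pdgfra 0, and Pdgfra held 1 match to TGACGT. Of the 44 members, 32 had a promoter entry. ACAAAG was found in 6 of 20 myelinating promoters (30%), in 0 of 8 precursor promoters and in 15.2% of 18424 promoters of the same length. ACAATG was found in 4 of 20 myelinating, 1 of 8 precursor and 1 of 4 committed promoters, and in 9.43% of all promoters. TGACGT was found in 1 of 32 member promoters, that of Pdgfra, against 7.54% of all, and TGACG in 2 of 32, against 20.4%. CAGCTG was found in 4 of 32 and CATATG in 1 of 32, against 12.3% and 2.80%. A match is a run of letters and no evidence of binding, and no match says only that the letters are not in this window.

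Markers of some other cells differed between libraries 4 and 5 and the rest, and are given beside the 16.5% of all genes called higher and 17.1% called lower without library 6. The 12 microglia markers summed to 36.6, 26.1 and 23.6 CPM in DMSO, 255 and 425 CPM in libraries 4 and 5, and 26.2 CPM in library 6. None of them was at 0 over the 6 libraries, and 11 of 12 were called higher without library 6, of which Itgam was tested only when library 6 was left out. The 12 proliferation genes summed to 96.1 to 121 CPM in DMSO and 195, 293 and 119 CPM with forskolin, with 8 of 12 called higher without library 6. The 14 neuron markers summed to 4770, 5629 and 6098 CPM in DMSO, 3553 and 3845 CPM in libraries 4 and 5, and 5696 CPM in library 6, with 9 of 14 called lower without library 6. The 11 astrocyte markers summed to 7320 to 8041 CPM in DMSO and 8068, 8892 and 7256 CPM with forskolin, with 2 called higher and 1 lower. Their part in the myelin result was not tested. The 8 Schwann cell markers, which would mark peripheral myelin, summed to 17.8, 13.1 and 14.5 CPM in DMSO and 27.0, 35.7 and 26.7 CPM with forskolin, and Pmp2 held 0 counts in all 6 libraries. Of the 4 tested, 2 were called higher and 1 lower without library 6. On that list edgeR called Egr2 higher and Pou3f1 lower with 6 libraries (edgeR adjusted p = 0.0431 and 0.0458). Egr2 is also an early response gene of neurons, and it had 5.51 to 10.2 CPM in DMSO and 20.9, 30.6 and 22.1 CPM with forskolin, with library 6 above every DMSO library. It thus made up most of the summed CPM of the Schwann cell list in each forskolin library. The neuronal genes Snap25 and Map2 were abundant, at 371 to 620 and 877 to 1347 CPM over the libraries, and Rbfox3 was called lower with 6 libraries (edgeR adjusted p = 0.0392).

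**Figure D5:**
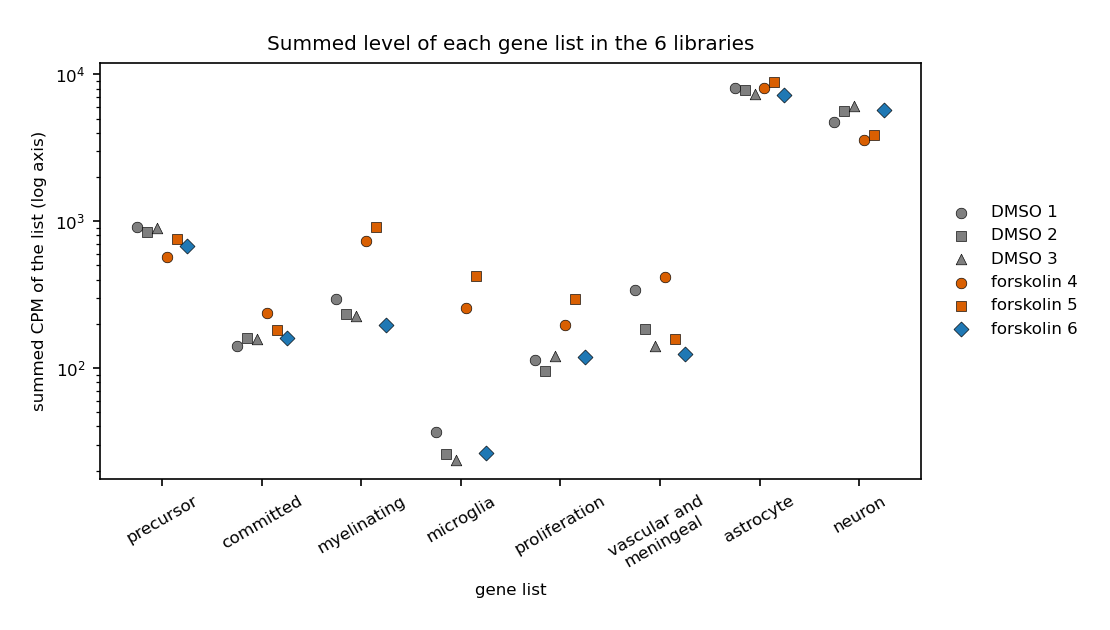
Points are summed CPM of each gene list in the 6 libraries, on a log axis. Libraries 4 and 5 lie apart from the other 4 in the committed, myelinating, microglia, proliferation and neuron lists, and narrowly in the astrocyte list. Library 6 lies inside the DMSO range in the microglia, proliferation and neuron lists. It lies below that range in the myelinating and, narrowly, astrocyte lists, and just above it in the committed list.

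Further myelin and mature markers, outside the 44, were mixed in direction, with 13 positive and 9 negative changes in the fit on 6 libraries. With 6 libraries edgeR called 0 of 22 tested, and without library 6 it called 12 of 23 higher and 3 lower, where all genes gave 16.5% and 17.1%. Of the 12, Nipal4 passed the low-count filter only when library 6 was left out, so its call supports nothing. Elovl7, a fatty acid elongase, had 2.33 to 3.12 CPM in DMSO and 12.04, 12.7 and 3.28 CPM with forskolin. Gjc3, a connexin of oligodendrocytes, had 0.164 to 0.533 CPM in DMSO and 3.97, 5.26 and 0.299 CPM with forskolin. Tmem88b had 0.813 to 0.952 CPM and then 3.65, 5.14 and 0.776 CPM. Of 16 further precursor markers 0 were called with 6 libraries, and 0 higher and 5 lower without library 6 (17.1% of all genes were lower), among them Cspg5, a brain proteoglycan, at 339 to 376 CPM in DMSO and 169, 232 and 283 CPM with forskolin. Dll3, a Notch ligand, had 13.1 to 13.7 CPM in DMSO and 5.204, 8.17 and 8.48 CPM with forskolin, and Xylt1 25.98 to 30.1 CPM and then 15.8, 20.2 and 29.0 CPM.

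Among 20 regulators of the lineage, 0 were called with 6 libraries (5 higher and 2 lower without library 6, against 16.5% and 17.1% of all genes). Hes1 and Hes5, Notch targets that hold precursors back, went opposite ways: Hes1 had 10.6 to 12.5 CPM in DMSO and 24.5, 27.7 and 12.9 CPM with forskolin, and Hes5 9.71, 5.28 and 5.22 CPM and then 1.21, 1.82 and 3.91 CPM. Without library 6 both were called (log2 fold change 1.14 and -2.17, edgeR adjusted p = 0.00349 and 0.00938). Id4, an inhibitor of differentiation, had 45.7 to 53.5 CPM in DMSO and 102, 83.5 and 40.4 CPM with forskolin.

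Of 22 signals and receptors, edgeR called 1 lower and 0 higher with 6 libraries, and 6 higher and 4 lower without library 6, again beside 16.5% and 17.1% of all genes. The gene called with 6 was Lingo1, a neuronal and glial membrane protein known as a brake on oligodendrocyte differentiation. It had 116, 137 and 122 CPM in DMSO and 58.0, 59.5 and 59.4 CPM with forskolin, so that library 6 lay between libraries 4 and 5. Its log2 fold change was -1.08 ± 0.11 (SE; edgeR adjusted p = 0.0204). With a GC content of 58.0%, it had a log2 fold change of -0.71 with the GC trend removed (edgeR adjusted p = 0.187), a fit that called 0 genes of any kind (1947 at an unadjusted p under 0.05), and of -0.82 with library 6 also left out (edgeR adjusted p = 0.00479). Cntf, a growth factor for oligodendrocytes, had 7.84 to 11.8 CPM in DMSO and 33.1, 31.8 and 7.91 CPM with forskolin, and Cxcr4, a chemokine receptor of precursors and microglia, 9.93 to 14.9 CPM and then 36.4, 36.4 and 14.9 CPM.

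The sterol synthesis genes, which supply the cholesterol of myelin, were tested as a separate list. Of 16 tested, 0 were called higher and 1 lower with 6 libraries, and 0 higher and 9 lower without library 6, where 1.34% and 17.1% of all genes were called lower. The gene lower with 6 was Mvk, mevalonate kinase, with 35.4, 39.4 and 37.0 CPM in DMSO and 25.6, 23.7 and 21.8 CPM with forskolin (log2 fold change -0.65, edgeR adjusted p = 0.0492). Dhcr7, the last enzyme of the pathway, had 56.2, 69.3 and 62.8 CPM in DMSO, 40.6 and 35.0 CPM in libraries 4 and 5, and 67.9 CPM in library 6.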

How the data were processed

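RNA-seq counts were analysed for 3 DMSO and 3 forskolin cultures. Read counts per gene symbol were deposited by the authors as whole numbers, not normalised. Salmon and DESeq on GRCm38 are named in the submitters' processing notes, without roles or versions. If Salmon made the counts they were estimates, rounded before deposit. The strand setting is not given in the sources used here. Per the file headers, the authors' deposited table gives a mean normalised count (a signal), log2 fold changes and their standard errors, a score equal to their quotient, and p-values.

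Low counts were filtered by filterByExpr of edgeR (minimum count 10, total 15), and libraries were scaled by TMM. Models were fitted with glmQLFit and tested with glmQLFTest (R 4.3.3, edgeR 4.0.16), with Benjamini-Hochberg adjustment over all tested genes and a threshold of 0.05. The SE is the absolute log2 fold change over the square root of F. limma 3.58.1 and DESeq2 1.42.0 gave alternatives. The edgeR step was tested on simulated data. GC content and length are those of the longest GENCODE M21 transcript, and all 44 members matched. The GC correction subtracted each library's lowess trend as an offset. Counts carry no molecular identifiers. With 3 libraries a group no outlier test was run.

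The members and lists were chosen with earlier results of these data known. Values in every library are given for the 4 members of each stage with the highest mean CPM, those called with 6 libraries, and the 4 of each stage with the largest change among those called without library 6. Other members were named for their place in the authors' table, for going against their stage or after their values were seen. Of other lists, members called with 6 libraries come first, then those with the smallest p without library 6. Promoters were chosen after the values were seen. The values of some marker genes outside the 44 are not given.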

Additional observations from a re-analysis of the deposited data

How the results depend on the processing

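No paired analysis was possible because the library numbers run from 1 to 6 and none occurs in both groups. The number of genes called was 245 with 6 libraries, and from 0 to 5698 when libraries were left out one at a time, the highest without library 6 and 0 without any other. It was 1765 with DESeq2, 6795 with library quality weights, 137 with RLE factors, 0 with the GC trend removed (1947 at an unadjusted p under 0.05), 5432 with library 6 left out and the GC trend removed, and 5213 with library 6 left out and at least 10 counts in every DMSO library. Members called higher were 0 with 6 libraries and 0 to 23 with 1 library left out. They were 9 with DESeq2, 17 with quality weights, 25 with library 6 left out and the GC trend removed, and 17 with library 6 left out and the DMSO count filter. Members called lower were 1 with 6 libraries and 0 to 3 with 1 library left out. They were 3 with DESeq2, 4 with quality weights, and 0 with RLE factors, total counts alone, every gene kept, only genes averaging 1 CPM or more, the GC trend removed or the DMSO count filter on 6 libraries, and 3 with that filter and library 6 left out. The precursor median log2 fold change was -0.35, and -0.11 and -0.014 with the GC trend removed, with and without library 6. The other stage medians, over members tested with 6 libraries, moved by less than the spread between libraries in each alternative run.

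Of 34 members tested with 6 libraries, 26 kept their direction in every alternative run for them. There were 16 alternatives, 2 of which were chosen after seeing the data (the DMSO count filters), and Aspa and Ppp1r14a were not tested under these or with only genes averaging 1 CPM or more. With the GC trend removed, Olig2 turned to 0.055, Sox10 to 0.076, C1ql1 to 0.26, Gpr17 to 0.070 and Pcdh15 to -0.11. With library 6 left out as well, Olig2 was 0.0020, Sox10 0.23, C1ql1 0.37, Lhfpl3 -0.0056 and Pcdh15 -0.21. Pcdh15 was -0.068 with total counts alone, -0.021 with library 6 left out and the DMSO count filter, and -0.069 to 0.27 with 1 library left out, negative without 1, 2, 5 or 6. With 1 library left out Pdgfra ranged from -0.44 to 0.0064 (positive without 4), Gpr17 from -0.14 to 0.086 (positive without 2 or 5) and Pllp from -0.083 to 0.33 (negative without 5). The cause of these changes was not tested. Low counts limit 11 of the 26 myelinating genes, each under 10 counts in at least 1 DMSO library. Scaling by total counts moved the median of all genes from 0.02 to -0.09.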
